A study of Mus musculus with 8 samples.

Results

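The livers of ovariectomized mice were examined for the enzymes of phase II drug metabolism, the genes whose products attach a polar group to drugs, hormones, bile acids and lipid peroxidation products. Members were chosen by symbol: every array row that names a single gene of the UDP-glucuronosyltransferase (UGT), sulfotransferase (SULT), glutathione S-transferase (GST), microsomal GST (MGST), carboxylesterase (CES) or NAT symbol series, with the row of highest mean taken per gene. This gave 76 genes of 19938 measured: 10 UGT, 16 SULT, 19 GST, 3 MGST, 16 CES and 12 NAT symbols. The carboxylesterases do not attach a group and are members by the symbol rule. A further 15 rows of these series name several genes each (among them the UGT1 row and the rows shared by Gsta1 and Gsta2 or by Gstp1 and Gstp2) and were left out, so no UGT1 gene is described. The livers of 4 HFD+WBM mice and 4 HFD mice were measured, 1 array per mouse.

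All 8 animals were female C57B1/6J mice whose ovaries were removed at 7 weeks of age, and all ate the high fat diet (HFD) for 3 months. The HFD+WBM mice ate it with white button mushroom (WBM, Agaricus bisporus) powder mixed in and with less corn starch, and the HFD mice ate it alone. The study matched food intake between the diets by pair feeding, and the mice were fasted before their livers were taken. After ovariectomy (OVX) estrogen comes only from tissues other than the ovary, and sham-operated mice have no array here. Values are log2 array signals, on which a difference of 1 is a 2-fold change, and each difference is taken within a gene between mice. The signals of different genes give no order of their RNA levels, and the median signal of all genes serves only to mark dim rows.

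Phase II enzymes work downstream of the cytochromes P450. UGTs transfer glucuronic acid or another sugar, SULTs transfer sulfate from the donor PAPS, GSTs and MGSTs transfer glutathione and so clear reactive electrophiles, and arylamine NATs transfer acetate from acetyl-CoA. Carboxylesterases cut ester bonds, a phase I type reaction, and several also cut neutral lipids in hepatocytes. Many of these genes are known targets of the xenobiotic receptors CAR and PXR, of the aryl hydrocarbon receptor AhR and of the oxidant sensor NRF2, and many differ between male and female mice.

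Few of the 76 members differed between the diets. With limma's moderated test, 5 of the 76 members were higher with HFD+WBM and 3 were lower at p under 0.05 before adjustment. Over all 19938 genes, 4.85% were higher and 6.9% were lower, which makes 11.7% in either direction, against 10.5% of the members. The share of members called was thus close to that of all genes. The median log2 fold change was 0.073 over the members and 0.0065 over all genes, and 43 members had an estimate above 0 and 33 below. No member changed by the study's own thresholds of p under 0.05 with at least a 2-fold change, which 0.762% of all genes passed. The smallest p of any member adjusted by Benjamini-Hochberg over all genes was 0.37 (Ces2a), and no gene on the array had an adjusted p under 0.05 in limma (0.0% of the genes tested, against 2341 with an unadjusted p under 0.05). When limma's prior variance was let follow the signal, 0.697% of all genes had an adjusted p under 0.05, and the smallest among the members was 0.051 (Ces3b).

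The intervals say how large a change could have been missed. For 63 of the 76 members (82.9%) the 95% interval lay inside a 2-fold change either way, against 81.4% of all genes. Members were mostly bright: 60 had a mean above 7.27, the median of all genes, with a median spread between mice of 0.22 (pooled SD), while the 16 dimmer members had 0.56. Leaving out 1 mouse moved the number of higher members between 1 (without HFD replicate 4) and 6, and it fell to 2 without HFD+WBM replicate 4 and to 3 without HFD+WBM replicate 2, HFD replicate 2 or HFD replicate 3. The number of lower members moved between 1 (without HFD+WBM replicate 2) and 4. Over all genes the same fits called 683 to 1057 higher and 904 to 1366 lower, against 966 and 1375 with all 8 mice. Without HFD replicate 4 the counts over all genes were 724 and 992.

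**Figure D1:**
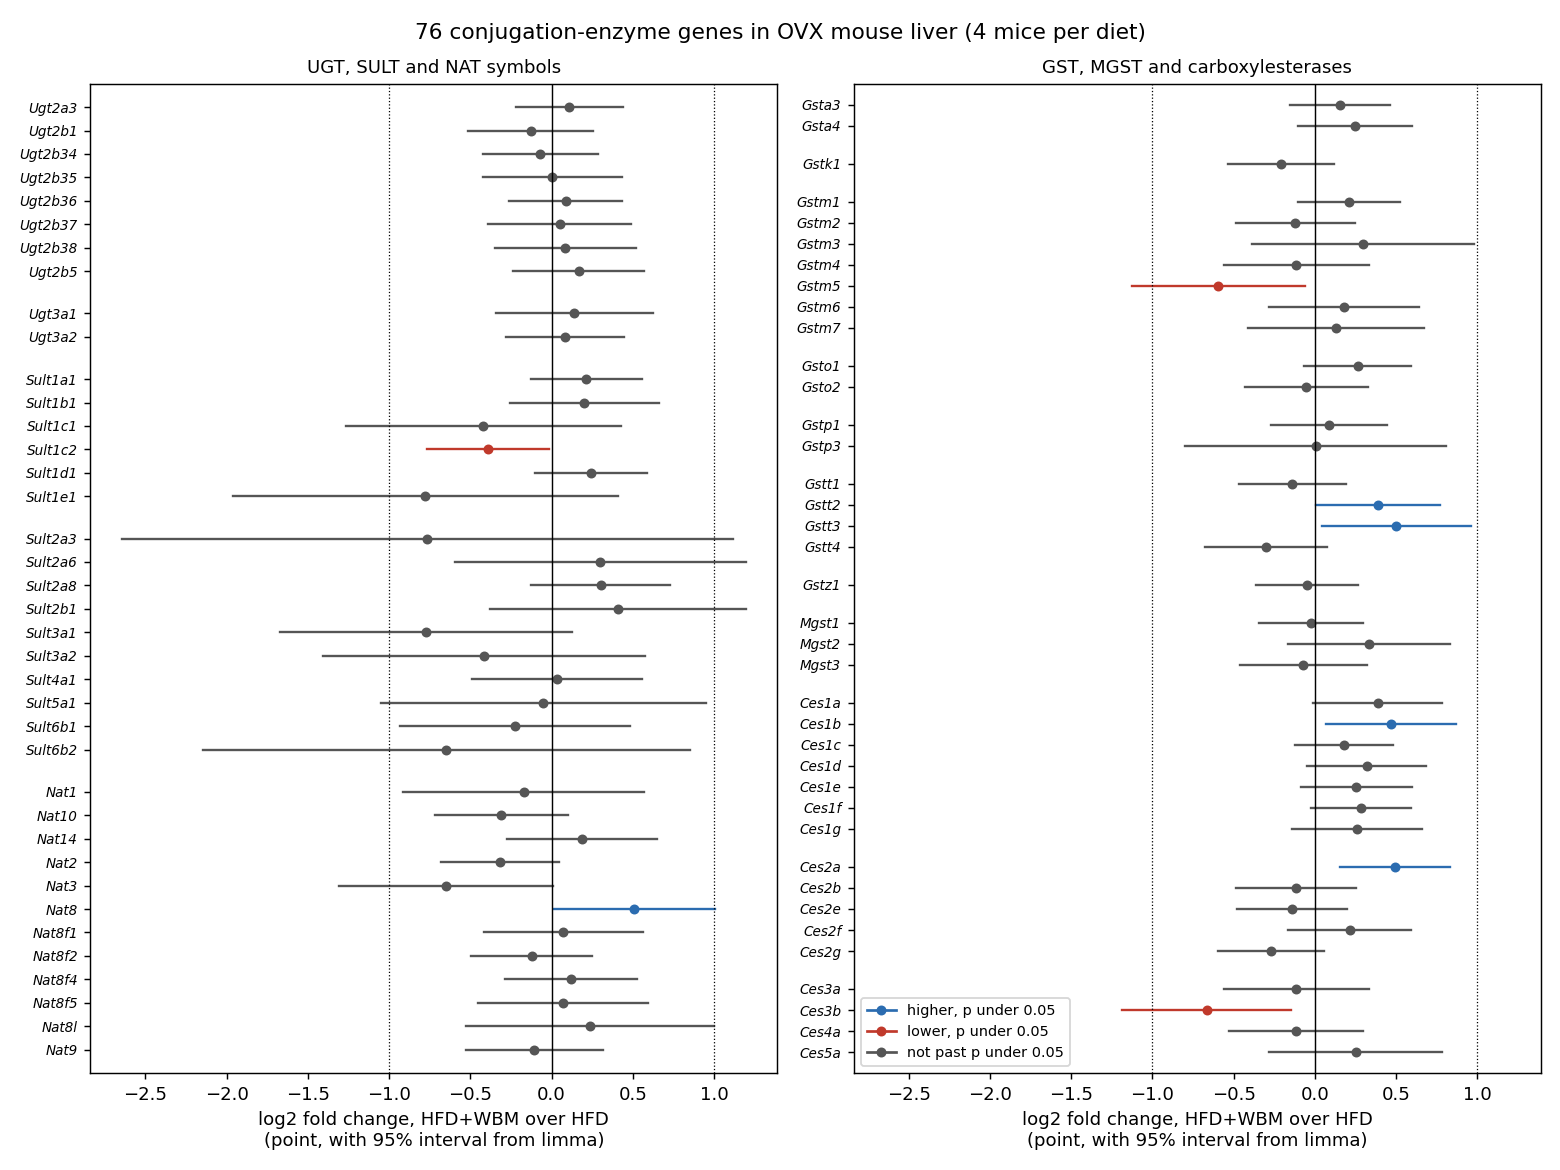
The log2 fold change of each of the 76 members, HFD+WBM over HFD, is plotted as a point with its 95% limma interval as a line, with genes down the page by enzyme class and dotted lines at a 2-fold change. The 5 blue members (Ces2a, Ces1b, Gstt3, Gstt2 and Nat8) and the 3 red members (Ces3b, Gstm5 and Sult1c2) passed p under 0.05 before adjustment, the 10 UGT intervals all stay inside a 2-fold change, and the widest intervals belong to SULT genes.

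The carboxylesterases held both the steadiest rise and the steadiest fall. Of 16 measured, 2 were higher (Ces2a and Ces1b), 1 was lower (Ces3b) and 13 did not pass the test, with a median log2 fold change of 0.23. The share called was 18.75%, against 11.7% of all genes. Ces2a, a microsomal esterase that hydrolyses drug esters and acylglycerols, had log2 values of 10.74, 10.80, 10.53 and 11.00 in the HFD+WBM livers, against 10.25, 10.18, 10.43 and 10.23 in the HFD livers. Every HFD+WBM mouse was above every HFD mouse. Its means were 10.77 ± 0.19 with HFD+WBM and 10.27 ± 0.11 with HFD (SD, n = 4 each), a 1.41-fold difference (log2 fold change 0.49, SE 0.15, 95% interval 0.15 to 0.83, limma p = 0.00904, adjusted p = 0.37, exact permutation p = 0.029). The permutation test was two-sided over the 70 divisions of the 8 mice, and 0.029 is the smallest p it can give. Ces2a passed p under 0.05 in all 8 fits that left out a mouse and in all 11 other settings. Groups that did not overlap were rare among the members: 2 of 76 (2.63%), both higher with HFD+WBM (Ces2a and Gstt3), against 3.21% of all genes higher and 5.02% lower, 8.23% in either direction.

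Ces3b, a liver carboxylesterase encoded near Ces2a on chromosome 8, went the other way. Its log2 values were 9.97, 10.14, 10.76 and 10.44 with HFD+WBM, against 10.85, 11.09, 11.44 and 10.60 with HFD. HFD+WBM replicate 3 lay above HFD replicate 4, so that the groups overlapped by these mice. The means were 10.33 ± 0.35 with HFD+WBM and 11.00 ± 0.36 with HFD (SD, n = 4 each), 1.59-fold lower (log2 fold change −0.67, SE 0.23, limma p = 0.0174, adjusted p = 0.38, exact permutation p = 0.057). Without HFD+WBM replicate 1 the estimate was −0.55 and the call was lost, while the other 7 fits that left out a mouse and the 11 other settings all passed. Its neighbour Ces3a read 12.82, 12.64, 12.61 and 12.81 with HFD+WBM and 13.27, 12.71, 12.97 and 12.38 with HFD, a difference of −0.12 (SE 0.20).

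The promoters of Ces2a and Ces3b, the members with the smallest p in each direction, are shown because these genes lie in the same cluster and moved in opposite directions. Each window holds the 250 bases before the first listed start of the gene, on the gene's own strand, from RefSeq on build GRCm38.p6. Capitals mark AGGTCA, a core motif bound by nuclear receptors including CAR and PXR as part of a longer element.
Ces2a, chr8:104733753-104734002, plus strand: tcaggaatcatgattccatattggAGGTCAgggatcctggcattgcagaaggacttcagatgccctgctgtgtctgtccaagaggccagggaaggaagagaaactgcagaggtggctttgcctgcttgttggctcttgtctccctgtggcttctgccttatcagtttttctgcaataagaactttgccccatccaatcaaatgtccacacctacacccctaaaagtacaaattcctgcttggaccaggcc
Ces3b, chr8:105083505-105083754, plus strand: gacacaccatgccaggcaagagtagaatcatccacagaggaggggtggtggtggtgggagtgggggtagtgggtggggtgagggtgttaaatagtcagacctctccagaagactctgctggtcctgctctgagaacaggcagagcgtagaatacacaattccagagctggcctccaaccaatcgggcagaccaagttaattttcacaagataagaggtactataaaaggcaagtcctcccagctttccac
The Ces2a window held AGGTCA beginning at position −226 from the start. The Ces3b window held none of the 4 motifs searched on both strands, which were AGGTCA, the related AGTTCA, the AhR core GCGTG and the core of the NRF2-bound antioxidant response element, TGACNNNGC. AGGTCA was found in 13.8% of 27025 mouse promoter windows and in 12 of the 64 member windows (18.8%). Both matches and their absence are descriptions of letters in these windows.

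The CES1 genes shared a direction. All 7 estimates were above 0 (median 0.28, from 0.18 to 0.47), against 50.7% of all genes, and they remained above 0 under each scaling, each other setting and with each mouse left out. The genes lie side by side on chromosome 8 with similar sequences, so that they are not independent, and signal shared between paralogs was not tested. Ces1b alone passed the test. It read 11.11, 11.28, 11.47 and 11.38 with HFD+WBM, against 11.23, 10.86, 10.69 and 10.57 with HFD, so that only HFD replicate 1 lay within the HFD+WBM range. Ces1b was 1.38-fold higher (log2 fold change 0.47, SE 0.18, limma p = 0.0265, adjusted p = 0.40, exact permutation p = 0.057). The call was lost without HFD+WBM replicate 3 (estimate 0.42), HFD+WBM replicate 4 (0.45), HFD replicate 3 (0.42) or HFD replicate 4 (0.38). The estimate was highest, at 0.60, without HFD replicate 1.

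The Ces1b window is given for the single called gene of this run of neighbours, on the minus strand and from the first of 2 listed starts. Capitals mark AGTTCA, another core motif of nuclear receptor elements, which began at position −249 from the start.
Ces1b, chr8:93079941-93080190, minus strand: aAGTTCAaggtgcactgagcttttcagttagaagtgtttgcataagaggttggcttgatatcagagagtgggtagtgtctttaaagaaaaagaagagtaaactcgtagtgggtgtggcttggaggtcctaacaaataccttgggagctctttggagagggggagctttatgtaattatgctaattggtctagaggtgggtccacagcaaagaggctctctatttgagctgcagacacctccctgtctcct
AGTTCA was found in 11.9% of all windows and in 11 of the 64 member windows (17.2%).

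The other CES1 genes were each short of the test. Ces1d, an endoplasmic reticulum enzyme that hydrolyses stored triacylglycerol, read 12.83, 13.18, 12.83 and 13.10 with HFD+WBM and 12.90, 12.41, 12.70 and 12.65 with HFD (log2 fold change 0.32, SE 0.16). Ces1f read 12.12, 12.19, 11.98 and 12.07 with HFD+WBM and 11.99, 11.72, 11.75 and 11.75 with HFD (0.28, SE 0.14), with HFD replicate 1 again the mouse within the HFD+WBM range. Ces1a, Ces1e, Ces1g and the plasma esterase Ces1c had estimates of 0.39, 0.25, 0.26 and 0.18. Averaged over the 7 genes, the log2 values were 11.76, 11.88, 11.66 and 11.93 in the HFD+WBM mice and 11.68, 11.39, 11.53 and 11.41 in the HFD mice. The number of CES1 genes called higher ran from 0 to 5 over all fits, with 5 when the prior variance followed the signal. Over all genes that fit called 1069 higher and 1642 lower, against 966 and 1375 in the main fit.

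The remaining carboxylesterases were split. Ces2g, Ces2e and Ces2b had estimates of −0.27, −0.14 and −0.12 and Ces2f had 0.21, none past the test, beside the rise of Ces2a. Ces4a differed by −0.12 (SE 0.18). Ces5a had 2 rows that disagreed in sign: 0.25 on the row used and −0.42 on the other. The 8 genes of the CES2, CES3 and CES4 run therefore had 2 estimates above 0, while the 8 genes of the CES1 and CES5 run on the same chromosome had 8, counting the Ces5a row used.

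**Figure D2:**
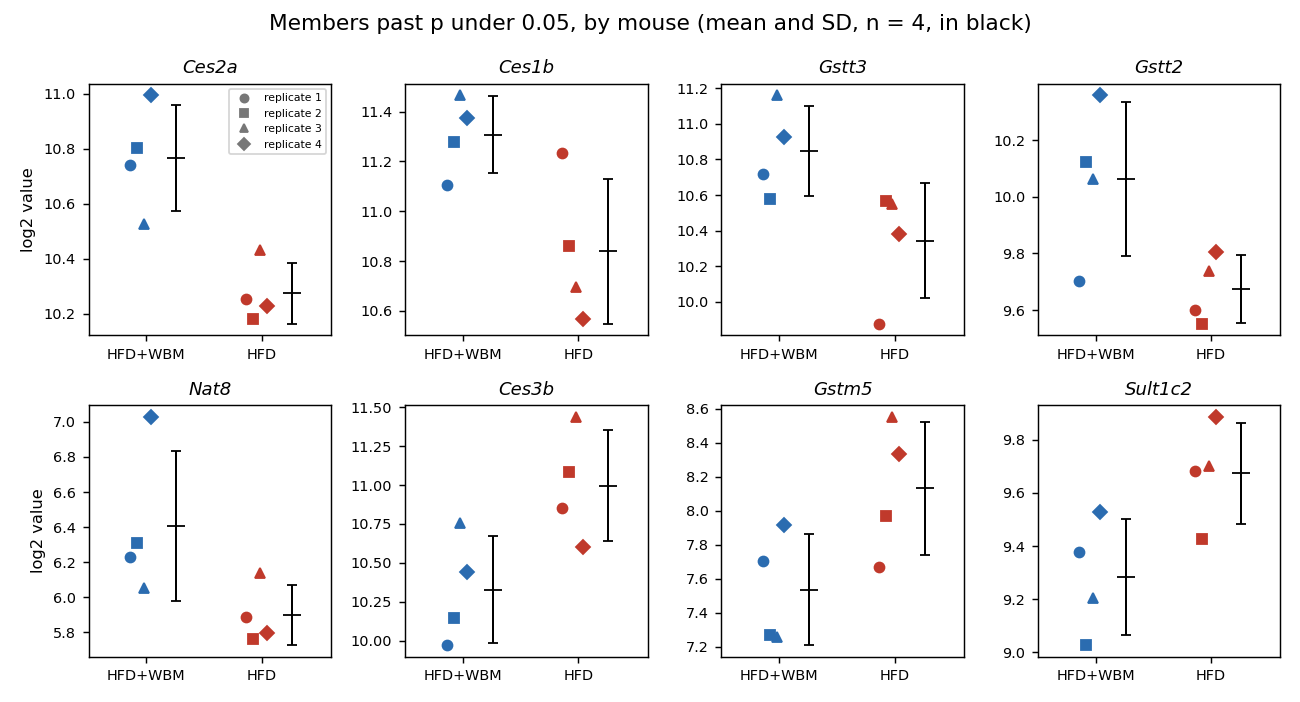
The log2 value of each of the 8 members past p under 0.05 is shown for every mouse, HFD+WBM in blue on the left and HFD in red on the right, with the replicate number as the marker shape and the mean and SD (n = 4) in black. Ces2a and Gstt3 are the members whose groups do not overlap, HFD replicate 1 reaches the HFD+WBM range for Ces1b, and HFD+WBM replicate 4 sets the top of the Nat8 values.

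Among the glutathione S-transferases, both higher genes belonged to the theta class. Of 19 GSTs, 2 were higher (Gstt3 and Gstt2), 1 was lower (Gstm5) and 16 did not pass the test (median 0.088). The share called was 15.8%, against 11.7% of all genes. Theta enzymes act on small electrophiles and organic peroxides. Gstt3 read 10.72, 10.58, 11.16 and 10.93 with HFD+WBM, against 9.88, 10.57, 10.55 and 10.38 with HFD. The groups did not overlap, but HFD+WBM replicate 2 and HFD replicate 2 all but met. It was 1.42-fold higher (log2 fold change 0.50, SE 0.20, limma p = 0.0348, adjusted p = 0.40, exact permutation p = 0.029), and the call was lost without HFD+WBM replicate 3 (estimate 0.40), HFD+WBM replicate 4 (0.47), HFD replicate 1 (0.35) or HFD replicate 4 (0.51). It was also lost in an unmoderated test, which takes the spread of each gene alone.

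Gstt2, which lies in the same cluster on chromosome 10, read 9.70, 10.12, 10.06 and 10.36 with HFD+WBM, against 9.60, 9.55, 9.74 and 9.81 with HFD. HFD+WBM replicate 1 lay among the HFD mice and the other 3 HFD+WBM mice above them all. It was 1.31-fold higher (0.39, SE 0.17, limma p = 0.0472, adjusted p = 0.42, exact permutation p = 0.086). The call held without HFD+WBM replicate 1 (estimate 0.51) and was lost without any other mouse (0.29 to 0.43), and it was also lost when the arrays were centred on their medians or weighted. The other theta genes of the cluster had estimates below 0: Gstt1, which conjugates dihalomethanes, differed by −0.14 (SE 0.15) and Gstt4 by −0.30 (SE 0.17).

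Gstm5, a mu class GST, was the member with the largest fall outside the carboxylesterases among those called. It read 7.71, 7.27, 7.26 and 7.92 with HFD+WBM, against 7.67, 7.97, 8.55 and 8.34 with HFD. HFD replicate 1 was as low as the HFD+WBM mice, and the other HFD mice were above all 4 of them. It was 1.51-fold lower (log2 fold change −0.59, SE 0.24, limma p = 0.032, adjusted p = 0.40, exact permutation p = 0.086). The call was lost without HFD+WBM replicate 2 (estimate −0.51), HFD+WBM replicate 3 (−0.50), HFD replicate 3 (−0.45) or HFD replicate 4 (−0.53), and in the unmoderated test.

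The Gstm5 window is printed because it alone, of the called members' windows, held the AhR core and the antioxidant response element core. Capitals mark the matches: CACGC, which is GCGTG read on the other strand, beginning at position −171 and again at −38 from the start, AGTTCA at −97, and TGACNNNGC at −42, whose letters overlap the nearer CACGC.
Gstm5, chr3:107895604-107895853, plus strand: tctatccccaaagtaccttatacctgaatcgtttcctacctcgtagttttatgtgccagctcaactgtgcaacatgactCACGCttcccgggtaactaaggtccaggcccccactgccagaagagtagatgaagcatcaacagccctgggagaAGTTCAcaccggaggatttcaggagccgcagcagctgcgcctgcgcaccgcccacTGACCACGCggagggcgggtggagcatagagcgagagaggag
TGACNNNGC was found in 10.1% of all windows and in 3 of the 64 member windows (4.69%), and GCGTG in 28.2% of all windows and 9 member windows (14.1%). No match was found for Gstt3 or Sult1c2, and the Nat8 window held AGTTCA at −169.

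The other mu genes lie beside Gstm5 on chromosome 3, and none of them was called. Gstm1 read 12.95, 12.88, 12.90 and 12.98 with HFD+WBM and 12.58, 12.61, 12.72 and 12.95 with HFD (0.21, SE 0.14), HFD replicate 4 reaching the HFD+WBM values. Gstm3, Gstm6 and Gstm7 had estimates of 0.29, 0.18 and 0.13, and Gstm2 and Gstm4 of −0.12 and −0.11. The second row of Gstm3 gave 0.23, the same direction as the row used.

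The remaining GSTs stayed within narrow intervals apart from Gstp3. Gsta3, the alpha enzyme that detoxifies aflatoxin epoxide in mice, differed by 0.15 (SE 0.14), and Gsta4, which clears the lipid peroxidation product 4-hydroxynonenal, by 0.25 (SE 0.16). Gsto1, an omega enzyme that reduces dehydroascorbate, differed by 0.26 (SE 0.15) and Gsto2 by −0.053. Gstk1, a transferase of mitochondria and peroxisomes, differed by −0.21 (SE 0.14), and Gstz1, the maleylacetoacetate isomerase of tyrosine breakdown, by −0.047. The pi enzymes Gstp1 and Gstp3 differed by 0.088 (SE 0.16) and 0.0051 (SE 0.36). The membrane enzymes Mgst1 and Mgst3 differed by −0.023 (SE 0.14) and −0.072 (SE 0.17). Mgst2, which can make leukotriene C4, read 8.23, 8.08, 8.71 and 7.62 with HFD+WBM and 7.92, 7.95, 7.72 and 7.71 with HFD (0.33, SE 0.22); 3 HFD+WBM mice were above the HFD mice and replicate 4 was below them.

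None of the 10 UGTs passed the test, against 11.7% of all genes. The 8 UGT2 and 2 UGT3 genes had estimates from −0.13 (Ugt2b1) to 0.17 (Ugt2b5), a median of 0.084, and the smallest limma adjusted p was 0.72. Their 95% intervals together ran from −0.51 to 0.62, inside a 2-fold change for all 10. None was called under any setting or with any mouse left out. Ugt2b5, a steroid-conjugating UGT of mouse liver, read 11.16, 11.48, 11.13 and 11.13 with HFD+WBM and 11.48, 10.91, 10.92 and 10.91 with HFD, so that 1 high mouse stood in each group. Ugt2a3 and Ugt2b34 differed by 0.11 (SE 0.15) and −0.069 (SE 0.16), and Ugt3a1 and Ugt3a2, of the family that uses other sugars in humans, by 0.14 (SE 0.21) and 0.082 (SE 0.16).

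The sulfotransferases varied most between mice, and 1 of 16 passed the test (6.25%, against 11.7% of all genes). Their median spread was 0.61 (pooled SD), against 0.24 over all members, and the interval lay within a 2-fold change for 7 of the 16. Many were dim: 7 of the 16 had a mean above the median of all genes, and dim members of any class had a median spread of 0.56. Among the brighter SULTs the spread ran from 0.16 (Sult1a1) to 1.48 (Sult2a3). Sult1c2, a cytosolic enzyme that sulfates phenols, read 9.38, 9.03, 9.20 and 9.53 with HFD+WBM, against 9.68, 9.43, 9.70 and 9.89 with HFD. The highest HFD+WBM mouse lay above the lowest HFD mouse. It was 1.31-fold lower (log2 fold change −0.39, SE 0.17, limma p = 0.0434, adjusted p = 0.41, exact permutation p = 0.057). The call held without HFD+WBM replicate 4 or HFD replicate 2 and was lost without any other mouse (estimates −0.42 to −0.30), and it was also lost when the arrays were centred on their medians, quantile normalized or weighted. Its neighbour Sult1c1, with dim values, had an estimate of −0.42 (SE 0.38).

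The phenol, thyroid hormone and catecholamine sulfotransferases had small estimates. Sult1a1 differed by 0.21 (SE 0.15), Sult1b1 by 0.20 (SE 0.20) and Sult1d1 by 0.24 (SE 0.15). Sult2a8, which sulfates bile acids in mouse liver, read 11.67, 11.91, 12.13 and 12.11 with HFD+WBM and 11.90, 11.78, 11.72 and 11.22 with HFD (0.30, SE 0.19).

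Single mice stood apart for several SULT genes, and leaving such a mouse out moved the estimates of Sult2a3 and Sult3a1. Sult2a3, of the hydroxysteroid SULT2A group, read 9.28, 9.16, 5.51 and 10.07 with HFD+WBM and 9.95, 9.04, 9.18 and 8.91 with HFD, and its estimate of −0.76 (SE 0.84) became 0.23 without HFD+WBM replicate 3. Sult1e1, the estrogen sulfotransferase, was low in the same mouse: 6.07, 6.63, 3.89 and 6.21 with HFD+WBM, and 6.21, 6.84, 6.04 and 6.82 with HFD (−0.78, SE 0.53). Its values are dim, and apart from that mouse its HFD+WBM values lay within the HFD range. Sult2a6 was also lowest in HFD+WBM replicate 3, at 3.80, among 8 dim values. Sult3a1, an amine sulfotransferase, read 8.04, 6.69, 7.10 and 7.59 with HFD+WBM and 8.26, 8.37, 8.83 and 7.05 with HFD. Its values in 3 HFD mice were above every HFD+WBM value, and HFD replicate 4 was among the lowest. Its estimate was −0.77 (SE 0.40) with all 8 mice and −1.13 without HFD replicate 4, and it passed p under 0.05 without that mouse or without HFD+WBM replicate 1. Of all fits run at the 2-fold threshold, that without HFD replicate 4 alone had a member past the study's thresholds. Without HFD+WBM replicate 1, Sult3a1 was just short of a 2-fold change.

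The NAT symbols join unlike enzymes, and 1 of the 12 passed (8.33%, against 11.7% of all genes). Nat8, which acetylates cysteine conjugates made from glutathione adducts into mercapturic acids, read 6.23, 6.31, 6.05 and 7.03 with HFD+WBM, against 5.88, 5.76, 6.14 and 5.79 with HFD. These are dim values, below the median of all genes, and HFD+WBM replicate 4 stood highest. It was 1.42-fold higher (0.51, SE 0.22, limma p = 0.0446, adjusted p = 0.42, exact permutation p = 0.057). The call was lost without HFD+WBM replicate 4 (estimate 0.30), HFD+WBM replicate 2 (0.54), HFD replicate 1 (0.51), HFD replicate 2 (0.47) or HFD replicate 4 (0.48). It was also lost in 6 of the 10 other settings in which this dim gene was tested, with an estimate of 0.28 when an offset of 64 was added before the log. Its relative Nat8f2 differed by −0.12 (SE 0.17) and Nat8f1 by 0.074 (SE 0.22).

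The arylamine N-acetyltransferases Nat1, Nat2 and Nat3 all had estimates below 0 (−0.17, −0.32 and −0.65), none past the test. They stayed below 0 under each scaling, while leaving out a mouse put at most 1 of them above 0. These genes lie close together on chromosome 8, so they may not be independent. Nat1 and Nat3 are dim, and an offset of 64 before the log brought the median of the group from −0.32 to −0.16. Nat2 read 8.10, 8.04, 8.17 and 8.49 with HFD+WBM and 8.65, 8.42, 8.68 and 8.33 with HFD (SE 0.16). Nat3 read from 3.35 to 4.30 with HFD+WBM and from 4.25 to 5.36 with HFD. Nat8l, Nat9, Nat10 and Nat14, which are not arylamine transferases, had estimates from −0.31 to 0.23.

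Within a diet, whole classes were high or low in particular mice. HFD replicate 1 was the highest HFD mouse for 8 of the 10 UGTs and the lowest for 6 of the 7 GST mu genes. HFD replicate 4 was the lowest HFD mouse for 7 UGTs and the highest for 5 mu genes. In the other group, HFD+WBM replicate 2 was the highest for 8 UGTs and the lowest for 5 mu genes, and HFD+WBM replicate 1 was the highest for 4 mu genes and the highest for no UGT. The UGT means were 11.26, 11.56, 11.26 and 11.41 in the HFD+WBM mice and 11.63, 11.18, 11.34 and 11.13 in the HFD mice, while the mu means were 10.43, 9.92, 10.09 and 10.16 in the HFD+WBM mice and 9.76, 10.17, 10.23 and 10.45 in the HFD mice. In each diet, the mouse with the highest UGT mean had the lowest mu mean. Outside the mu class Gstp3 had the same lowest mice, at 10.34, 9.33, 9.93 and 9.80 with HFD+WBM and 8.77, 10.39, 9.97 and 10.25 with HFD. Of the mu genes, Gstm3 read 10.99, 10.21, 10.30 and 10.25 with HFD+WBM and 9.48, 10.23, 9.94 and 10.91 with HFD. The ranges of Gstp3 and Gstm3 within a diet were wider than the diet differences of the same genes, 0.0051 and 0.29. Over all 19938 genes HFD replicate 1 was highest in its group for 22.6% and lowest for 23.6%, so that its place differed by class and not over the whole array.

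**Figure D3:**
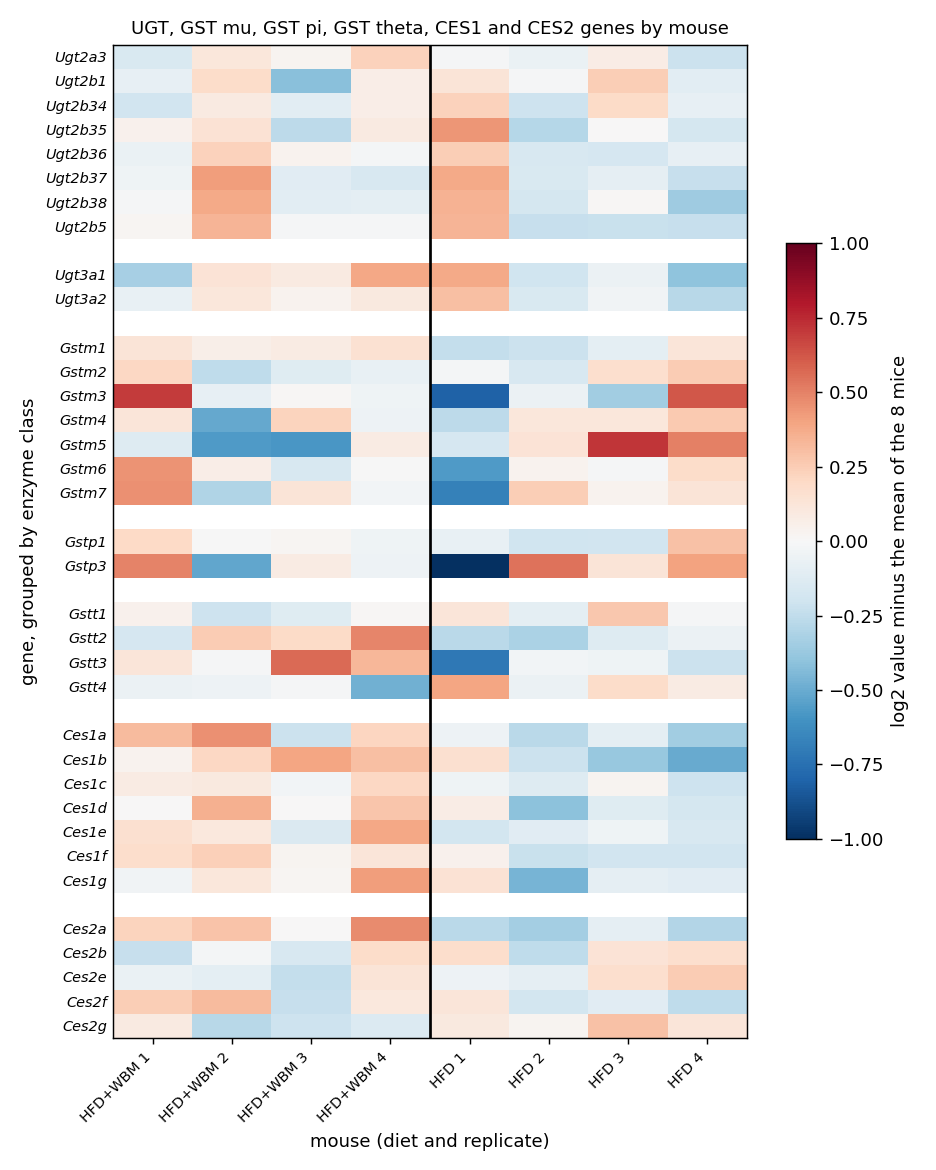
Each cell gives the log2 value of a gene in a mouse minus that gene's mean over the 8 mice (red above, blue below), for UGT, GST mu, GST pi, GST theta, CES1 and CES2 genes down the page and the HFD+WBM mice to the left of the HFD mice. HFD replicate 1 is red for most UGTs and blue for most mu and pi genes, HFD replicate 4 is the reverse, and the CES1 block is mostly red on the left and blue on the right.

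Of 44 genes of cofactor supply, conjugate handling and export, 6 passed the test (13.6%, against 11.7% of all genes), 2 of them higher and 4 lower. Of 4 genes of glucuronic acid supply and removal, Gusb, the lysosomal glucuronidase that cuts glucuronides, was lower: 8.50, 8.47, 8.41 and 8.52 with HFD+WBM, against 8.50, 8.86, 9.02 and 9.35 with HFD (−0.46, SE 0.19, limma adjusted p = 0.40). Among the fits that left out a mouse the call held only without HFD replicate 1 (estimate −0.60, and −0.48 to −0.32 in the others). Of 5 PAPS genes, Papss1, a PAPS synthase, was lower (−0.45, SE 0.20, limma adjusted p = 0.42), while Papss2, the main synthase of liver, differed by 0.23 (SE 0.18). The Papss1 call held without HFD+WBM replicate 1 or HFD replicate 2 and was lost without any other mouse (estimates −0.49 to −0.33), and it was lost with array weights or the unmoderated test. Of 16 genes of glutathione supply and turnover, the dipeptidase Dpep1 was higher (0.63, SE 0.23, adjusted p = 0.39), Ggct, which cleaves gamma-glutamyl dipeptides, was lower (−0.86, SE 0.29, adjusted p = 0.38), and 14 did not pass, among them both subunits of glutamate-cysteine ligase, the rate-limiting enzyme of glutathione synthesis (Gclc 0.030, Gclm −0.054). Dpep1 lost its call without HFD+WBM replicate 3 (estimate 0.52), HFD replicate 2 (0.51) or HFD replicate 3 (0.50), and with array weights (0.49). Both Dpep1 and Ggct are dim, and an offset of 64 before the log brought their estimates to 0.33 and −0.43, with the calls kept.

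Tpmt and Abcc3 were called in every fit run. Of 8 other conjugating transferases, Tpmt, the thiopurine methyltransferase, was lower, at 9.95, 9.73, 10.03 and 10.18 with HFD+WBM and 10.23, 10.38, 10.69 and 10.65 with HFD. The groups did not overlap, and it was 1.43-fold lower (−0.52, SE 0.17, limma p = 0.0121, adjusted p = 0.37, exact permutation p = 0.029). Of 11 transporters, Abcc3, which exports glucuronides to the blood, was higher, at 11.45, 11.88, 11.81 and 12.02 with HFD+WBM and 11.39, 10.92, 11.15 and 11.42 with HFD (0.57, SE 0.18, limma p = 0.0111, adjusted p = 0.37, exact permutation p = 0.029). Abcc2, the exporter of conjugates to bile, also had groups apart without passing the test, at 12.60, 12.74, 12.70 and 12.78 with HFD+WBM and 12.53, 12.31, 12.30 and 12.53 with HFD (0.29, SE 0.14). Both Tpmt and Abcc3 kept their calls in the 8 fits that left out a mouse and in the 11 other settings. The same held for Cyp2b10, Cyp1a2 and Hmox1 of the lists below. Ggct kept its call in the 8 fits and in the 10 other settings in which this dim gene was tested.

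The receptors that control these genes were not called. None of 14 transcription factors passed the test (median 0.019): Nr1i3, which encodes CAR, differed by 0.30 (SE 0.22), Nr1i2, which encodes PXR, by −0.030 (SE 0.18), Nfe2l2, which encodes NRF2, by −0.20 (SE 0.16) and Ahr by 0.45 (SE 0.21). Ahr passed p under 0.05 in 7 of the 11 other settings. Of 6 marker targets of CAR and PXR outside the members, 2 were higher (33.3%, against 4.85% of all genes). Cyp2b10, the CAR target read most often in mouse liver, was at 9.24, 8.05, 7.16 and 8.29 with HFD+WBM, against 6.73, 6.90, 7.18 and 6.60 with HFD. It was 2.53-fold higher (log2 fold change 1.34, SE 0.37, limma adjusted p = 0.37), past the study's thresholds, and 0.99 on the log2 scale, just short of them, without HFD+WBM replicate 1. With the prior variance following the signal, limma's adjusted p was 0.020 for Cyp2b10 and 0.037 for Abcc3. Alas1, the first enzyme of heme synthesis, had an estimate of 0.47 (adjusted p = 0.42). Cyp2b10 lay within the HFD range in HFD+WBM replicate 3 alone of its group. Cyp3a11, the usual PXR marker, differed by 0.057. Alas1 lost its call without any mouse other than HFD+WBM replicate 1 or HFD replicate 1 (estimates 0.37 to 0.50), and with quantile normalization or the unmoderated test.

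Of the members known as inducible through these receptors, 1 was called. Of 13 genes of these families listed as induced by CAR or PXR agonists in mouse liver, 8 had a row naming them alone. Of these, 1 was higher (Ces2a), or 12.5% against 11.7% of all genes called, and the median was −0.023. Of 11 listed NRF2 targets among the GSTs, 8 had such a row, none was called and the median was 0.17. Gsta1, Gsta2, Gstp2, Ces2c, Ugt1a1 and Sult2a1 had no such row and are missing from these counts. Among 8 NRF2 targets outside the members, none was higher and 2 were lower (25%, against 6.9% of all genes). Hmox1, heme oxygenase, read 8.59, 8.56, 8.22 and 8.81 with HFD+WBM and 9.01, 8.91, 9.35 and 9.24 with HFD (−0.58, SE 0.18, limma adjusted p = 0.37). The other was Srxn1, sulfiredoxin (−0.59, SE 0.24, limma adjusted p = 0.40). Nqo1 differed by −0.17 (SE 0.21). The Srxn1 call was lost without HFD+WBM replicate 2 or 3 or HFD replicate 1 or 4 (estimates −0.61 to −0.42) and in the unmoderated test. The AhR targets split, with Cyp1a2 higher (0.53, SE 0.18, adjusted p = 0.38) and Cyp1a1 lower (−0.71, SE 0.24, adjusted p = 0.38) among 5. That is 40% of the list called, against 11.7% of all genes. Cyp1a2 had an adjusted p of 0.047 with limma's prior variance following the signal. Cyp1a1 is dim, and it lost its call in that fit and with an offset of 64 (estimate −0.25).

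**Figure D4:**
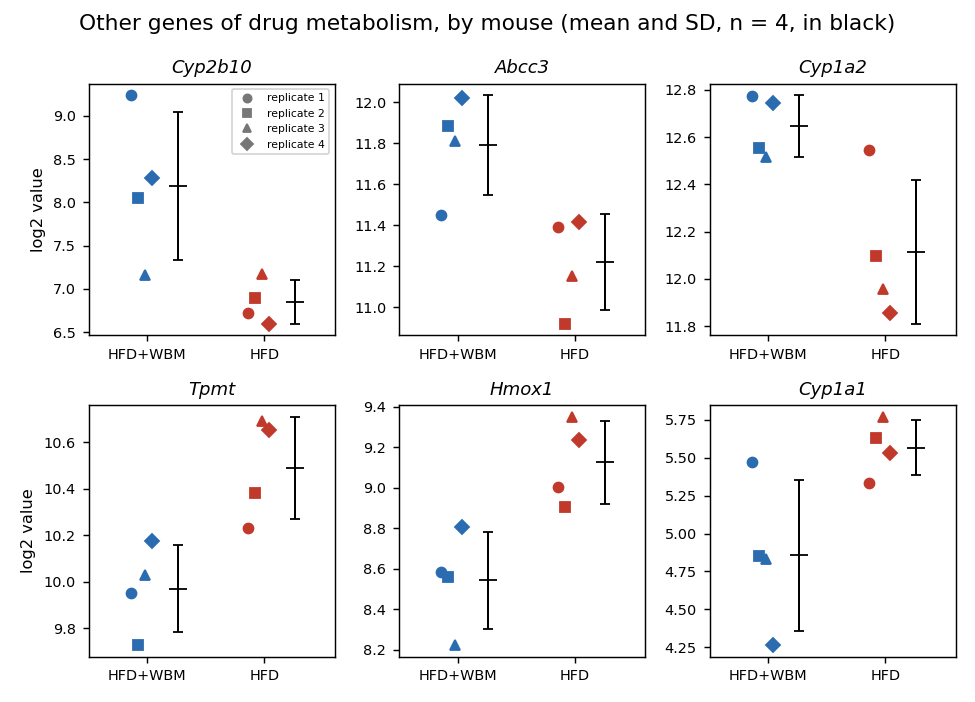
Log2 values of 6 genes outside the members are shown for every mouse, HFD+WBM in blue on the left and HFD in red on the right, with marker shapes for replicate numbers and the mean and SD (n = 4) in black. Cyp2b10, Abcc3 and Cyp1a2 are higher and Tpmt, Hmox1 and Cyp1a1 lower with HFD+WBM, and Cyp2b10 spreads most, from 7.16 to 9.24 in the HFD+WBM mice.

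Most of these enzymes are made in hepatocytes. None of 8 hepatocyte markers was called (median log2 fold change 0.090), and their mean log2 value ran from 13.49 to 13.61 with HFD+WBM and from 13.36 to 13.54 with HFD. Of 12 Kupffer cell and macrophage markers, 10 were lower and none higher (mean 8.65 to 9.11 with HFD+WBM, 9.10 to 9.74 with HFD). Of 10 stellate cell and matrix markers, 5 were lower (mean 7.93 to 8.46 with HFD+WBM, 8.31 to 9.03 with HFD). These are 83.3% and 50% of the lists, against 6.9% of all genes lower. Of 10 sinusoidal endothelial markers 1 was lower (mean 9.10 to 9.53 with HFD+WBM, 9.26 to 9.88 with HFD), and none of 6 cholangiocyte or 7 lymphocyte markers was called. Their part in the differences of the members was not tested. In whole liver, fewer cells of a type and less RNA per cell cannot be told apart. None of 6 periportal markers and 1 of 8 pericentral markers (Rhbg, −0.74) was called.

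The arrays had medians of 7.11 to 7.19 in the HFD+WBM group and 7.04 to 7.22 in the HFD group. HFD replicate 3 stood apart, with a spread of 0.68 from the mean of the remaining 7, while the rest had 0.38 to 0.50. Without it, 3 members were higher and 2 lower, and over all genes 1057 were higher and 1280 lower.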

How the data were processed

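Liver RNA of 8 OVX mice was read on Affymetrix Mouse Gene 1.0 ST arrays, 4 fed HFD+WBM and 4 fed HFD, with groups and replicate numbers taken from the sample labels. The methods name separate liver specimens, so the spread between arrays was taken as that between mice. The authors corrected the background, normalized the arrays and summarized the probes by IterPLIER (Affymetrix Power Tools, per the submitters' notes 1.8.6), and the deposited values are log2 signals. The sources used here name no offset before the log, and no detection calls were used, so low values carry no background limit. The number of arrays limits the precision.

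Of 28944 rows, 21789 name 1 gene in the platform annotation, and 21698 of these were matched by gene number to RefSeq. Where a gene had several rows (999 genes), the row of highest mean was kept, giving 19938 genes. Diet was tested on each with lmFit and eBayes of limma 3.58.1 (R 4.3.3), two-sided, called at p under 0.05 before adjustment, with Benjamini-Hochberg adjustment over all genes. The study's cutoffs, a p of 0.05 together with a 2-fold change, were counted separately with the p taken before adjustment. A seeded simulation, with differences larger than those of the called members, served to check the test. Single genes were also tested by exact permutation. The 4 motifs were searched on both strands of the 250 bases before the first listed start in the RefSeq table (GRCm38.p6), which held 64 of the 76 members.

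The members and gene lists were chosen with earlier results of these data known. Named members were those called, those whose groups do not overlap, and in each class the 2 with the highest mean and the one with the smallest p. Named genes of the other lists were those called and a fixed set of receptors and marker targets. Some others complete a class. The alternatives were median centring, quantile normalization, offsets of 16 and 64 before the log, the brighter 50% of genes, the mean of all rows of a gene, all rows tested, a prior variance following the signal, array weights, an equal-variance (unmoderated) test of each gene alone, the replicate block, a 1.5-fold threshold and leaving out each mouse.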

Additional observations from a re-analysis of the deposited data

Results flagged for a closer look

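In 9 of 152 groups of 4 mice (76 members in 2 diets, 5.92%), 1 mouse stood far from the other 3 by Dixon's criterion, and chance gives about 1 in 20. With HFD+WBM, Ugt2b5 was highest in replicate 2 (11.48, the others 11.13 to 11.16), Gstm3 was highest in replicate 1 (10.99, the others 10.21 to 10.30) and Gstt4 was lowest in replicate 4 (6.59, the others 7.01 to 7.05). With HFD, replicate 1 was highest for Ugt2b5 (11.48, the others 10.91 to 10.92) and Ces1f (11.99, the others 11.72 to 11.75) and lowest for Sult1b1 (8.23, the others 8.47 to 8.52). Ces2b was lowest in HFD replicate 2 (8.44, the others 8.83 to 8.87). HFD replicate 3, the array farthest from the rest, was highest for the dim genes Nat3 (5.36, the others 4.25 to 4.34) and Sult6b1 (5.07, the others 3.88 to 4.00). None of these genes was called between the diets.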

How the results depend on the processing

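No called member changed sign in any fit, but most calls lay near the threshold. Over settings other than leaving out a mouse, 72 of 87 values of the called members kept their side of p under 0.05 and 15 did not. Over fits without a mouse, 33 kept it and 31 did not. Against 5 higher and 3 lower members, median centring gave 3 higher and 2 lower, a prior variance following the signal 10 and 5, the replicate block 2 and 3, the brighter 50% of genes 6 and 5 of the 60 members kept, quantile normalization 6 and 2, an offset of 16 gave 6 and 4, an offset of 64 gave 7 and 4, and array weights 7 and 3. The unmoderated test passed 10 members (7 higher and 3 lower) and 2596 of all genes before adjustment, 0 members and 98 genes with a 2-fold change as well, and 0 of either after Benjamini-Hochberg. A threshold of 1.5-fold passed 2 members, Ces3b and Gstm5. Leaving out a mouse gave 1 to 6 higher, 1 to 4 lower and 0 to 1 past the study's thresholds. Over all 19938 genes the main fit called 966 higher and 1375 lower. Median centring gave 921 and 1268, the prior variance following the signal 1069 and 1642, and the replicate block 748 and 1009. The brighter 50% gave 725 and 1197 of 9969 genes, quantile normalization 1121 and 1355, and an offset of 16 gave 997 and 1431. An offset of 64 gave 1097 and 1700, and array weights 1260 and 1455. The cause of these shifts was not tested. Over all genes, same-numbered mice of the 2 diets did not deviate together (r of −0.04, −0.05, −0.12 and −0.02). Such values cannot show that the mice were unpaired. The groups were pair-fed, but the labels do not say which mice were matched, so the block was run only as an alternative. With it Ces1b, Gstt2, Nat8, Gusb, Papss1 and Alas1 did not pass.

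Among the genes named by the rule above, some estimates changed sign. They were those of members near 0, of the receptor gene Nr1i2 and Cyp3a11, which are no members, and of Sult2a3, which rested on a single mouse. Ces5a, which that rule does not name, fell below 0 when all rows of a gene were averaged. With array weights Ces3a was 0.011, Gstp3 −0.095 and Mgst1 0.035. With an offset of 64 Gstp3 was −0.0023, and with quantile normalization Nr1i2 was 0.027. Leaving out a mouse gave ranges of −0.27 to 0.031 for Ces3a, −0.10 to 0.21 for Cyp3a11, −0.074 to 0.25 for Gstm7, −0.14 to 0.059 for Gsto2, −0.35 to 0.19 for Gstp3, −0.095 to 0.010 for Gstz1, −0.085 to 0.031 for Mgst1, −0.17 to 0.0061 for Mgst3, −0.10 to 0.17 for Nat8f1, −0.15 to 0.088 for Nr1i2 and −1.29 to 0.23 for Sult2a3. Dim members are the least precise, and array probes shared between close paralogs could not be examined here.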
